A study of Mus musculus with 8 samples.

Results

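The 36 genes described here encode the aminoacyl-tRNA synthetases of the mouse, 20 that act in the cytosol and 16 that act in mitochondria only. They were taken by symbol from a table of 24940 genes, and a member had to reach 1 RPKM (tags scaled to the length of the exons and to the depth of the library) in at least 2 of 8 libraries. All 36 listed members did so and are among the 11040 genes tested. Lars2 took a far larger share of the tags than any other member and is described apart, which leaves 15 mitochondrial members.

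RNA came from bone marrow-derived macrophages, adherent cells grown from femur and tibia marrow of C57BL/6 mice aged 6 to 8 weeks, with 30 ng/ml of M-CSF in the medium. The cells carried a hairpin labelled NCsh or TMBIM6sh, and RANKL, the cytokine that turns these precursors into bone-resorbing osteoclasts, was left out or given at 100 ng/ml for 24 h. That makes 4 groups of 2 libraries: NCsh without RANKL, NCsh with RANKL, TMBIM6sh without RANKL and TMBIM6sh with RANKL. The groups follow the titles, since the treatment text is the same for all samples. What NCsh stands for is not given in the labels. With 1 hairpin named on each side, the loss of Tmbim6 and any other action of a hairpin cannot be told apart. The labels do not say that duplicates came from separate animals or cultures, so p-values measure only the spread between these libraries. In bulk RNA, fewer cells of a type and less RNA per cell cannot be told apart either.

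Each synthetase joins an amino acid to its tRNA, and the charged tRNA carries that amino acid to the ribosome. The enzymes fall in class I and class II by the fold of the active site, and several cytosolic ones sit in a multisynthetase complex held by the scaffold proteins Aimp1, Aimp2 and Eef1e1. Many cytosolic members are known targets of ATF4, the transcription factor of the integrated stress response, which binds C/EBP-ATF response elements (CARE). Kars and Gars each supply the cytosolic and the mitochondrial enzyme from a single gene and are counted with the cytosolic members.

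Promoter sequences show how members differ in these elements. RefSeq promoters on GRCm38.p6 (mm10), 250 bases before to 50 after the start, were found for 27 of the 36 members. They were searched on both strands for the CARE core TGATGNAA, reverse TTNCATCA, and for the E-box CACGTG, the site of MYC and related factors. The sites found in members do not overlap each other. The CARE core was present in 5 of 13 cytosolic members with a promoter (Yars, Gars, Aars, Iars and Tars) and in 0 of 14 mitochondrial ones. It was present in 3.97% of all 32851 promoters. Members are counted by gene here and all promoters singly, so the shares are of unlike units. The E-box was present in 4 of 13 cytosolic members (Farsb, Aars, Iars and Tars) and in 1 of 14 mitochondrial ones (Ears2). It was present in 7.15% of all promoters. The 9 members without a promoter sequence were not searched, so a name missing here is not evidence of a missing word. The lines below run 5′ to 3′ from 150 bases before the start to 20 bases into the transcript, with CARE cores and E-boxes lying wholly inside in capitals. Iars and Mars were among the members higher with RANKL, Gars was higher with the TMBIM6 hairpin, and Tars and Aars hold the same core without a called change. Iars lies at chr13:49681980-49682149 (plus strand), Gars at chr6:55037851-55038020 (plus), Tars at chr15:11399639-11399808 (minus), Aars at chr8:111033692-111033861 (plus) and Mars at chr10:127311767-127311936 (minus).
Iars: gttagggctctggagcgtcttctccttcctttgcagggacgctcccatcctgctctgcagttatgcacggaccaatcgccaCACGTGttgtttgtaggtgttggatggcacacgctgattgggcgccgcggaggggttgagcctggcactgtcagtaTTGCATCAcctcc
Gars: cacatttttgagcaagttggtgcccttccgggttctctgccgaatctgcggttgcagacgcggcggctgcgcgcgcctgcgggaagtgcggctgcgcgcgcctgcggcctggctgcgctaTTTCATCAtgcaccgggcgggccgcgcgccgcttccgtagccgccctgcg
Tars: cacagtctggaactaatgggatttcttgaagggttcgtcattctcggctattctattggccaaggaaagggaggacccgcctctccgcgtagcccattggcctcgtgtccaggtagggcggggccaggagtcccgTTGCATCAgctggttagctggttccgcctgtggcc
Aars: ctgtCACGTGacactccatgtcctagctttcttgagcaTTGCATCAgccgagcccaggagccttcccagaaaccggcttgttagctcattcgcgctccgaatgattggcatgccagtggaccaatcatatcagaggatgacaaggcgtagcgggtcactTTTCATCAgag
Mars: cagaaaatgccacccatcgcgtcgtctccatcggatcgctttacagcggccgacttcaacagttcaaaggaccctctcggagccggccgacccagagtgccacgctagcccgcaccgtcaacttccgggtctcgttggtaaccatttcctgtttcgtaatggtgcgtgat
The Iars promoter holds an E-box and a CARE core, Gars a CARE core alone, and Aars an E-box and a pair of cores. In the Tars window the CARE core stands alone, as its E-box begins on the last base shown. Mars has neither word in the whole window searched. A match describes letters and is not evidence of a bound site.

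The depth was 25474000 to 28595000 tags per library, and 83.5% to 86.4% of them lay in exons. A cytosolic member had 852 to 7158 tags in a library, a mitochondrial member other than Lars2 105 to 1858. The library labels were checked with Tmbim6, which stood at 308.9 to 333.7 RPKM in the 4 NCsh libraries and at 10.0 to 11.7 RPKM in the 4 TMBIM6sh libraries. Macrophage markers (10 genes, none at 0) summed to 9454 to 10870 RPKM in NCsh without RANKL, 9248 to 9331 in NCsh with RANKL, 8638 to 8647 in TMBIM6sh without RANKL and 7542 to 8160 in TMBIM6sh with RANKL. Most of each sum was Lyz2, at 5280 to 8071 RPKM, which was not called with RANKL under either hairpin. Of the 10 markers 6 were called lower with RANKL in NCsh, 5 with RANKL in TMBIM6sh, 2 with the TMBIM6 hairpin without RANKL and 3 with it in RANKL. The shares of all genes tested that were called lower were 3.98%, 6.89%, 13.8% and 19.7%. Adgre1 had positive RANKL differences (0.11 and 0.20 on the log2 scale), not called. The neutrophil markers (5 genes, 2 to 4 of them at 0 in each library) summed to 22.4 to 27.9 RPKM in NCsh and 11.4 to 15.5 RPKM in TMBIM6sh, nearly all of it S100a8. Stromal markers summed to at most 3.51 RPKM, and lymphocyte, erythroid and dendritic markers to at most 0.551 RPKM. The part of these shifts in the differences below was not tested.

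Levels per exon length were higher for most cytosolic than for most mitochondrial members. Asparaginyl-tRNA synthetase Nars had the highest mean of the cytosolic members over the 8 libraries, 84.4 RPKM, followed by the alanine enzyme Aars at 65.4 RPKM. Then came Dars (aspartate, 46.5 RPKM), Eprs (glutamate and proline, 46.1 RPKM), Rars (arginine, 45.9 RPKM) and Sars (serine, 39.9 RPKM). The middle of the order held Iars (isoleucine, 34.0), Qars (glutamine, 33.0), Kars (lysine, 31.4), Gars (glycine, 30.9), Farsb (the beta subunit of the phenylalanine enzyme, 28.0), Lars (leucine, 24.9), Tars (threonine, 24.7), Wars (tryptophan, 24.4) and Hars (histidine, 24.2 RPKM). Lowest were Farsa (the alpha subunit of the phenylalanine enzyme, 20.7), Mars (methionine, 19.9), Yars (tyrosine, 19.4), Cars (cysteine, 16.9) and Vars (valine, 12.9 RPKM). Of the 19 pairs of neighbours in this order 16 had library ranges that overlap, and only Nars and Aars, Aars and Dars, and Cars and Vars were apart.

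The mitochondrial members other than Lars2 ran from Iars2 at a mean of 18.1 RPKM and Tars2 at 10.9 RPKM down to Wars2 at 1.26 and Ears2, the glutamate enzyme, at 0.974 RPKM. Between them lay Rars2 (7.66), Fars2 (7.30), Yars2 (6.81), Hars2 (4.86), Cars2 (4.56), Sars2 (4.03), Aars2 (3.16), Nars2 (2.56), Vars2 (2.14), Mars2 (2.09) and Pars2, the proline enzyme (2.06 RPKM). Library ranges overlapped in 10 of the 15 pairs of neighbours. In the 12 amino acids with a cytosolic and a mitochondrial gene, Lars2 left out, the cytosolic mean was 1.87 (Iars over Iars2) to 32.9 times (Nars over Nars2) the mitochondrial one, with a median of 6.01. Tags were counted without regard to strand, and Iars2 shares 2034 exon bases (22.9% of those of all its isoforms) with Rab3gap2, which had a mean of 17.4 RPKM. Aars shares 1326 exon bases (14.3%) with Exosc6, at a mean of 10.5 RPKM. The part of shared tags in these levels was not tested. The 20 cytosolic members summed to 621 to 725 RPKM per library and the 15 mitochondrial ones to 73.0 to 84.7 RPKM.

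**Figure D1:**
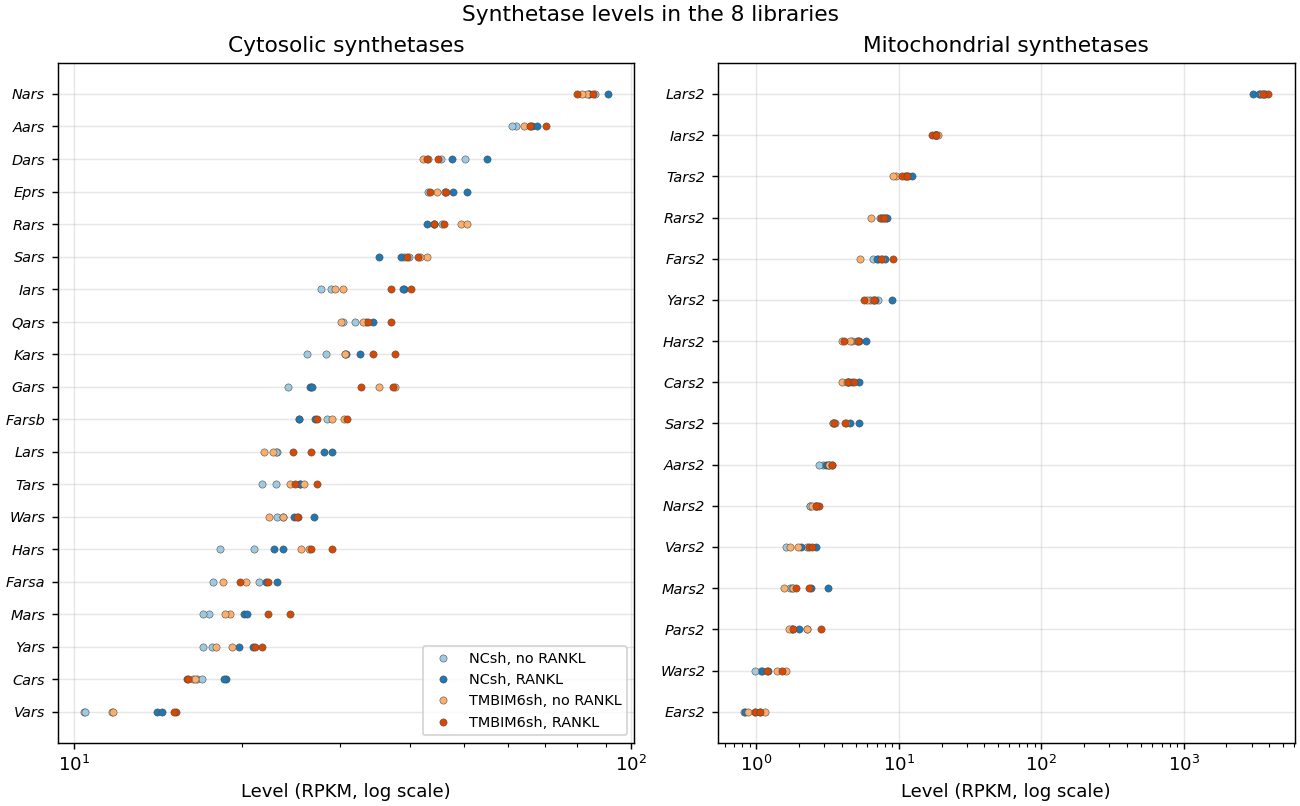
Level of each synthetase in RPKM (log scale) in the 8 libraries, coloured by group, cytosolic members on the left and mitochondrial members on the right, in order of the mean. Nars and Aars stand above the other cytosolic members, and Lars2 stands at 3090 to 3938 RPKM while no other mitochondrial member passes 18.7 RPKM.

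RANKL in NCsh cells raised 4 of 20 cytosolic members, Iars, Vars, Lars and Mars, and 1 of 15 mitochondrial members, Mars2, while none fell (limma, Benjamini-Hochberg adjusted p under 0.05). The rises of the 4 cytosolic members were small, with ratios of means from 1.18 to 1.38. Among all genes tested 11% were called higher, 3.98% lower and 15% in either direction. Read against these shares, the members' counts, which for the cytosolic set were 2 without replicate 1 or 2 of NCsh with RANKL, are no result about either set. The median log2 difference was 0.14 for cytosolic and 0.11 for mitochondrial members, beside 0.06 for all genes tested. Both RANKL libraries lay above both others for 14 cytosolic members and below them for 1 (Sars), where 39% and 17.1% of all genes did so. For the mitochondrial members these counts were 9 and 1. With median-ratio scaling of the libraries the cytosolic median was 0.06, beside -0.007 for all genes tested. The split of all calls changed under that scaling from 1214 higher and 439 lower to 787 and 850.

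Iars, the isoleucine enzyme and a member of the complex (chromosome 13, 49682130 to 49734267, plus strand), measured 28.9 and 27.8 RPKM in NCsh without RANKL and 39.0 and 38.9 RPKM with it. In TMBIM6sh it measured 30.4 and 29.4 RPKM without RANKL and 37.0 and 40.2 RPKM with it. All 4 RANKL libraries were above all 4 others, and no group overlapped its RANKL counterpart. The log2 difference for RANKL was 0.45 in NCsh (SE 0.0627, adjusted p = 0.00165, limma) and 0.36 in TMBIM6sh (SE 0.0627, adjusted p = 0.0044, limma). Without replicate 2 of TMBIM6sh without RANKL the second adjusted p was 0.0533.

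Vars, the valine enzyme, which binds elongation factor 1 (chromosome 17, 35000907 to 35016329, plus strand), measured 10.4 and 10.5 RPKM in NCsh without RANKL and 14.1 and 14.4 RPKM with it. In TMBIM6sh the values were 11.7 and 11.7 RPKM without RANKL and 15.2 and 15.1 RPKM with it. Again the 4 RANKL libraries were the 4 highest. The log2 differences were 0.41 in NCsh (SE 0.0622, adjusted p = 0.00228, limma) and 0.35 in TMBIM6sh (SE 0.0622, adjusted p = 0.00473, limma).

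Lars, the cytosolic leucine enzyme, also known as a leucine sensor upstream of mTORC1 (chromosome 18, 42202349 to 42262071, minus strand), measured 23.2 and 23.0 RPKM in NCsh without RANKL and 29.0 and 28.1 RPKM with it. In TMBIM6sh it measured 22.8 and 21.9 RPKM without RANKL and 24.7 and 26.6 RPKM with it. The RANKL libraries were higher with either hairpin, with no overlap. The log2 difference passed in NCsh (0.29, adjusted p = 0.0128, limma) and not in TMBIM6sh (0.19, adjusted p = 0.0699, limma), and the difference between these values did not pass either (-0.10, 95% interval -0.30 to 0.09). Without replicate 1 or 2 of NCsh with RANKL the NCsh adjusted p was 0.0999 or 0.0531.

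Mars, the methionine enzyme, which supplies the initiator tRNA (chromosome 10, 127296221 to 127311786, minus strand), measured 17.5 and 17.0 RPKM in NCsh without RANKL and 20.2 and 20.4 RPKM with it. In TMBIM6sh it measured 19.1 and 18.7 RPKM without RANKL and 22.3 and 24.4 RPKM with it. Groups with and without RANKL did not overlap. The log2 difference was 0.22 in NCsh (adjusted p = 0.0473, limma) and 0.29 in TMBIM6sh (adjusted p = 0.0143, limma). The NCsh call was lost in 12 of 16 alternative analyses, among them the omission of any NCsh library and of either TMBIM6sh library without RANKL (adjusted p of 0.0696 to 0.171). The TMBIM6sh call was lost without replicate 1 or 2 of TMBIM6sh without RANKL (0.0777 and 0.107) and without replicate 2 of TMBIM6sh with RANKL (0.0937). Mars shares 68 exon bases with Ddit3 on the opposite strand.

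Kars, the lysine enzyme (chromosome 8, 111993439 to 112011354, minus strand), measured 26.2 and 28.3 RPKM in NCsh without RANKL and 32.6 and 30.7 RPKM with it. In TMBIM6sh it measured 30.6 and 30.6 RPKM without RANKL and 34.4 and 37.6 RPKM with it. The RANKL libraries were higher in each case, but the log2 differences of 0.21 and 0.23 did not pass (adjusted p = 0.0704 and 0.0554, limma). Yars, the tyrosine enzyme, stood just outside the threshold as well, with log2 differences of 0.22 (adjusted p = 0.0503) and 0.20 (adjusted p = 0.076, limma).

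Mars2, the mitochondrial methionine enzyme (chromosome 1, 55237177 to 55240058, plus strand), measured 1.72 and 1.78 RPKM in NCsh without RANKL and 3.19 and 2.42 RPKM with it. In TMBIM6sh it measured 1.82 and 1.56 RPKM without RANKL and 2.34 and 1.90 RPKM with it. The NCsh log2 difference was 0.46 (SE 0.135, adjusted p = 0.0478, limma), and the TMBIM6sh one 0.21 (adjusted p = 0.354, limma). The call rests on 128 to 234 tags per library and was lost in 13 of 16 alternatives. Leaving out any library but replicate 2 of NCsh with RANKL ended it (adjusted p of 0.0567 to 0.276). Sars2, the mitochondrial serine enzyme, had a log2 difference of 0.39 in NCsh (adjusted p = 0.0553, limma).

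RANKL in TMBIM6sh cells raised 3 of 20 cytosolic members, Iars, Vars and Mars, and none of the 15 mitochondrial members, 2 of which had an unadjusted p under 0.05 (limma, threshold adjusted p of 0.05). No member fell. Of all genes tested 8.53% were called higher, 6.89% lower and 15.4% in either direction. An unadjusted p under 0.05 (limma) was found for 3156 of the 11040 genes. The median log2 difference was 0.08 for cytosolic and 0.10 for mitochondrial members, beside 0.02 for all genes, and the cytosolic value was 0.12 without replicate 1 and 0.02 without replicate 2 of TMBIM6sh with RANKL. Both RANKL libraries lay above both others for 9 cytosolic and 6 mitochondrial members and below them for 3 cytosolic members (Cars, Rars and Sars). Of all genes 32.2% lay above and 26.2% below. Without replicate 2 of TMBIM6sh without RANKL only Vars was called. Of the mitochondrial members Tars2 came nearest to the threshold (0.21, adjusted p = 0.0796, limma), followed by Fars2, the phenylalanine enzyme (0.33, adjusted p = 0.151, limma), whose libraries overlapped and whose value was 0.55 without replicate 1 and 0.12 without replicate 2 of TMBIM6sh without RANKL, and 0.21 without replicate 2 of TMBIM6sh with RANKL.

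By role, 4 of 9 class I cytosolic members were called higher with RANKL in NCsh and 3 of 9 in TMBIM6sh, against 0 of 10 class II members in either comparison, where limma gave 3 and 1 at an unadjusted p under 0.05. The class I median log2 differences were 0.22 and 0.19, the class II ones 0.11 and 0.05. Eprs joins an enzyme of each class and was left out of this count. Of the 8 members of the multisynthetase complex 3 were called higher in NCsh (Iars, Lars and Mars) and 2 in TMBIM6sh (Iars and Mars), while Dars, Eprs, Kars, Qars and Rars were not called. Every called cytosolic member is on the list of 13 known ATF4 targets (4 of 13 in NCsh and 3 of 13 in TMBIM6sh), and 0 of the other 7 were called. Of all genes tested 11% were called higher in NCsh and 8.53% in TMBIM6sh, so 0 calls in lists of 7 or 10 say little. An unadjusted p under 0.05 (limma) was found for 3331 of the 11040 genes in NCsh and for 3156 in TMBIM6sh. None of these splits was tested, and the lists overlap.

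**Figure D2:**
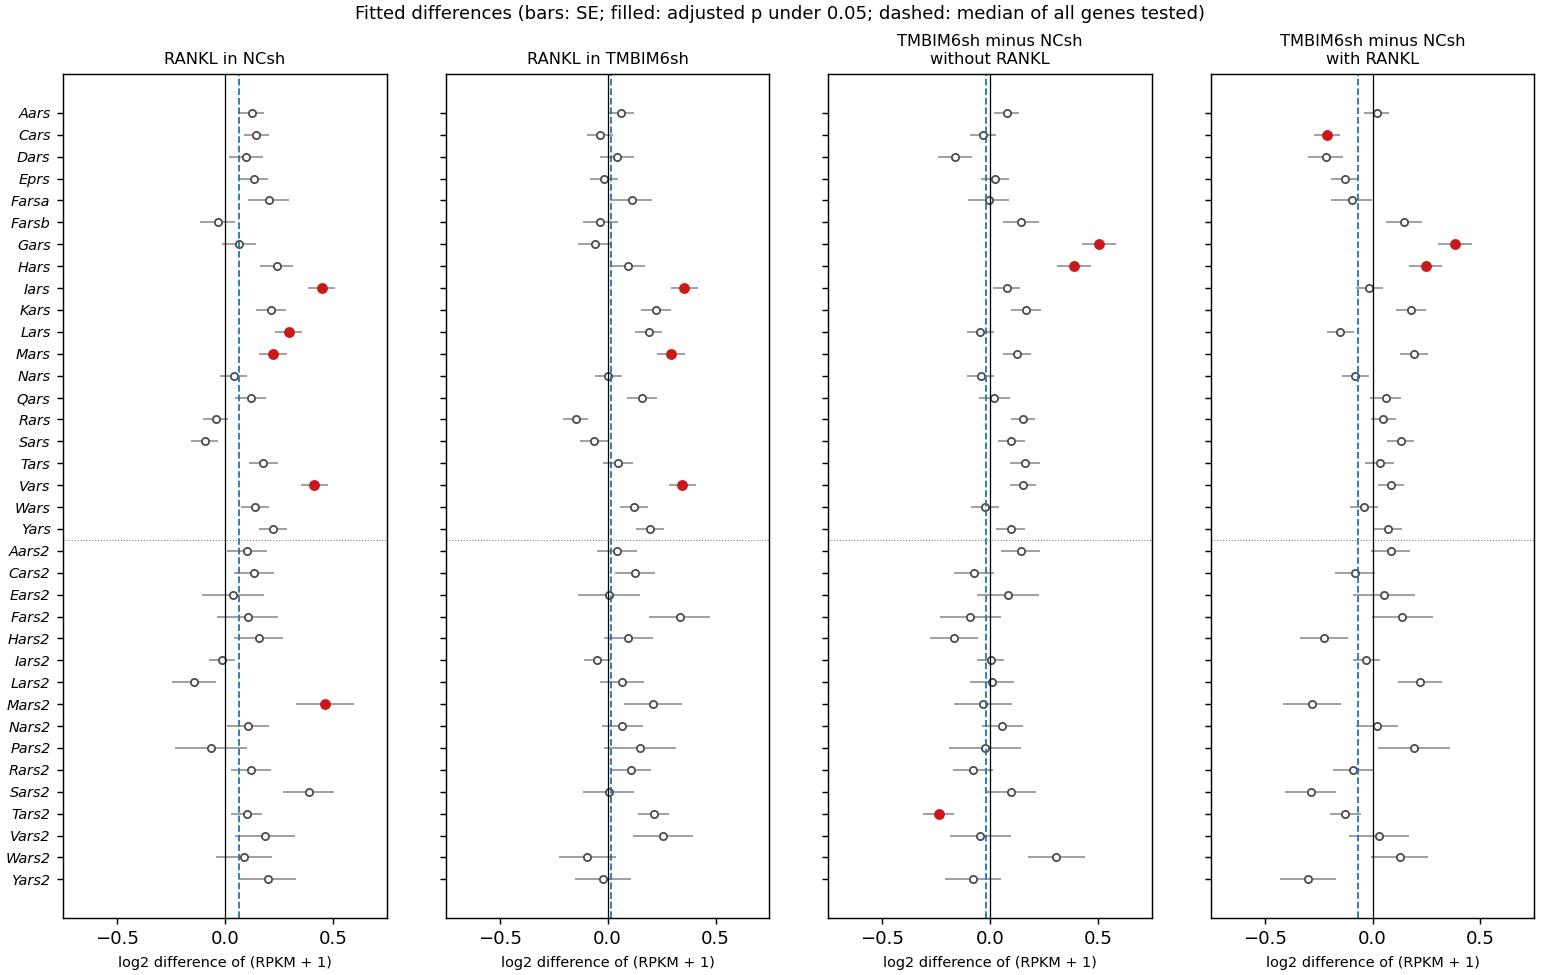
Fitted log2 difference of each synthetase (points, with SE bars) in 4 comparisons, cytosolic members above the dotted line and mitochondrial members below it. Filled points have an adjusted p under 0.05, and the dashed line is the median of all 11040 genes. RANKL calls are Iars, Vars, Mars, Lars and Mars2, and the hairpin calls are Gars, Hars, Cars and Tars2.

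The members called between hairpins were Gars, Hars, Tars2 and Cars. Without RANKL 2 of 20 cytosolic members, Gars and Hars, were higher in TMBIM6sh than in NCsh, and 1 of 15 mitochondrial members, Tars2, was lower (limma, adjusted p under 0.05). Of all genes tested 10.4% were called higher, 13.8% lower and 24.2% in either direction, and read against these shares the members' count is not a result about the set. The median log2 difference was 0.09 for cytosolic and -0.03 for mitochondrial members, beside -0.02 for all genes. Both TMBIM6sh libraries lay above both NCsh libraries for 12 cytosolic members and below them for 4 (Cars, Dars, Lars and Nars), where 27.7% and 33.9% of all genes did so. For the mitochondrial members the counts were 3 and 3. The hairpin and the RANKL comparisons share libraries, and the values below are given side by side for that reason.

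Gars, the glycine enzyme (chromosome 6, 55038001 to 55079504, plus strand), measured 24.1 and 26.7 RPKM in NCsh without RANKL and 37.6 and 35.2 RPKM in TMBIM6sh without RANKL. With RANKL it measured 26.5 and 26.7 RPKM in NCsh and 32.7 and 37.3 RPKM in TMBIM6sh. All 4 TMBIM6sh libraries were above all 4 NCsh libraries. TMBIM6sh minus NCsh was 0.50 on the log2 scale without RANKL (SE 0.0787, adjusted p = 0.00163, limma) and 0.38 with it (SE 0.0787, adjusted p = 0.00605, limma), or ratios of means of 1.43 and 1.32. RANKL itself gave 0.07 in NCsh and -0.06 in TMBIM6sh, with overlapping libraries.

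Hars, the histidine enzyme (chromosome 18, 36766528 to 36783205, minus strand), measured 18.2 and 21.0 RPKM in NCsh without RANKL and 25.5 and 26.4 RPKM in TMBIM6sh without RANKL. With RANKL it measured 22.9 and 23.7 RPKM in NCsh and 26.6 and 29.0 RPKM in TMBIM6sh. The TMBIM6sh libraries were again the 4 highest. TMBIM6sh minus NCsh was 0.39 on the log2 scale without RANKL (SE 0.078, adjusted p = 0.00615, limma) and 0.25 with it (adjusted p = 0.0409, limma). The first call was lost without replicate 2 of TMBIM6sh without RANKL (adjusted p = 0.0541). The call with RANKL was lost without any library other than the 2 of NCsh without RANKL (adjusted p of 0.0575 to 0.2), and it was 0.0897 with no filter on low values. Hars and Hars2 lie head to head, with 3 bases between the deposited gene models and 195 shared exon bases in GENCODE M21. Hars2 itself had a mean of 4.86 RPKM and log2 differences of -0.17 without RANKL and -0.23 with it, neither called (adjusted p = 0.316 and 0.16, limma).

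Tars2, the mitochondrial threonine enzyme (chromosome 3, 95739974 to 95754977, minus strand), measured 11.2 and 11.2 RPKM in NCsh without RANKL and 9.62 and 9.07 RPKM in TMBIM6sh without RANKL. With RANKL it measured 11.7 and 12.5 RPKM in NCsh and 10.6 and 11.4 RPKM in TMBIM6sh. The TMBIM6sh libraries were the lower ones in each case. The log2 difference was -0.24 without RANKL (adjusted p = 0.0394, limma) and -0.13 with it (adjusted p = 0.225, limma). The call was lost in 10 of 16 alternatives, the omission of any library other than the 2 of TMBIM6sh with RANKL among them (adjusted p of 0.0525 to 0.21).

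With RANKL present the TMBIM6 hairpin left Gars and Hars higher and Cars lower, 2 and 1 of 20 cytosolic members, while 0 of the 15 mitochondrial members were called, with 2 at an unadjusted p under 0.05 (limma, threshold adjusted p of 0.05). Of all genes 8.93% were called higher, 19.7% lower and 28.6% in either direction, and the members' count again says nothing particular of the set. An unadjusted p under 0.05 (limma) was found for 4492 of the 11040 genes. The median log2 difference was 0.04 for cytosolic and -0.03 for mitochondrial members, beside -0.07 for all genes, and the cytosolic value was 0.08 without replicate 1 and -0.02 without replicate 2 of TMBIM6sh with RANKL. Both TMBIM6sh libraries lay above both NCsh libraries for 8 cytosolic and 1 mitochondrial member and below them for 4 cytosolic and 6 mitochondrial members, where 23.7% and 42.7% of all genes did so. Median-ratio scaling changed the split of all calls from 986 higher and 2171 lower to 1608 and 1621. Under that scaling 6 cytosolic members were called, all higher: Gars, Hars, Mars, Kars, Sars and Farsb. Without replicate 2 of either RANKL group only Gars was called among the cytosolic members. Without either library of NCsh without RANKL 5 were called (Gars, Hars and Mars higher, Cars and Dars lower).

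Cars, the cysteine enzyme (chromosome 7, 143557230 to 143600090, minus strand), measured 18.7 and 18.6 RPKM in NCsh with RANKL and 15.9 and 16.0 RPKM in TMBIM6sh with RANKL. Without RANKL it measured 16.6 and 17.0 RPKM in NCsh and 16.3 and 16.5 RPKM in TMBIM6sh. The NCsh libraries with RANKL were the 2 highest of the 8. The log2 difference between hairpins was -0.21 with RANKL (SE 0.0594, adjusted p = 0.0251, limma) and -0.03 without it (adjusted p = 0.753, limma). The call was lost with median-ratio scaling (adjusted p = 0.108) and without replicate 1 or 2 of NCsh with RANKL (0.113 and 0.0916) or replicate 1 or 2 of TMBIM6sh with RANKL (0.0858 and 0.0782).

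Other members differed between hairpins by less than the threshold. Dars, the aspartate enzyme, had log2 differences of -0.16 without RANKL and -0.22 with it (adjusted p = 0.173 and 0.0661, limma), the second being -0.32 without replicate 1 and -0.12 without replicate 2 of NCsh with RANKL. Rars, the arginine enzyme, had 0.15 without RANKL (adjusted p = 0.0819), and Mars had 0.19 with RANKL (adjusted p = 0.0526, limma). By class, 0 of 9 class I members were called without RANKL and 1 (Cars, lower) with it, against 2 of 10 class II members in each comparison (Gars and Hars, higher). Of the 8 members of the multisynthetase complex 0 were called in either hairpin comparison (limma), with 2 and 4 at an unadjusted p under 0.05. That threshold was met by 4016 and 4492 of the 11040 genes. Of the 13 ATF4 targets Gars was called higher in both hairpin comparisons and Cars lower with RANKL. Hars is not on that list. The shares called over all genes were 10.4% higher and 13.8% lower without RANKL, and 8.93% and 19.7% with it. Beside those shares, such small counts say little of a class or list, and none of these splits was tested.

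**Figure D3:**
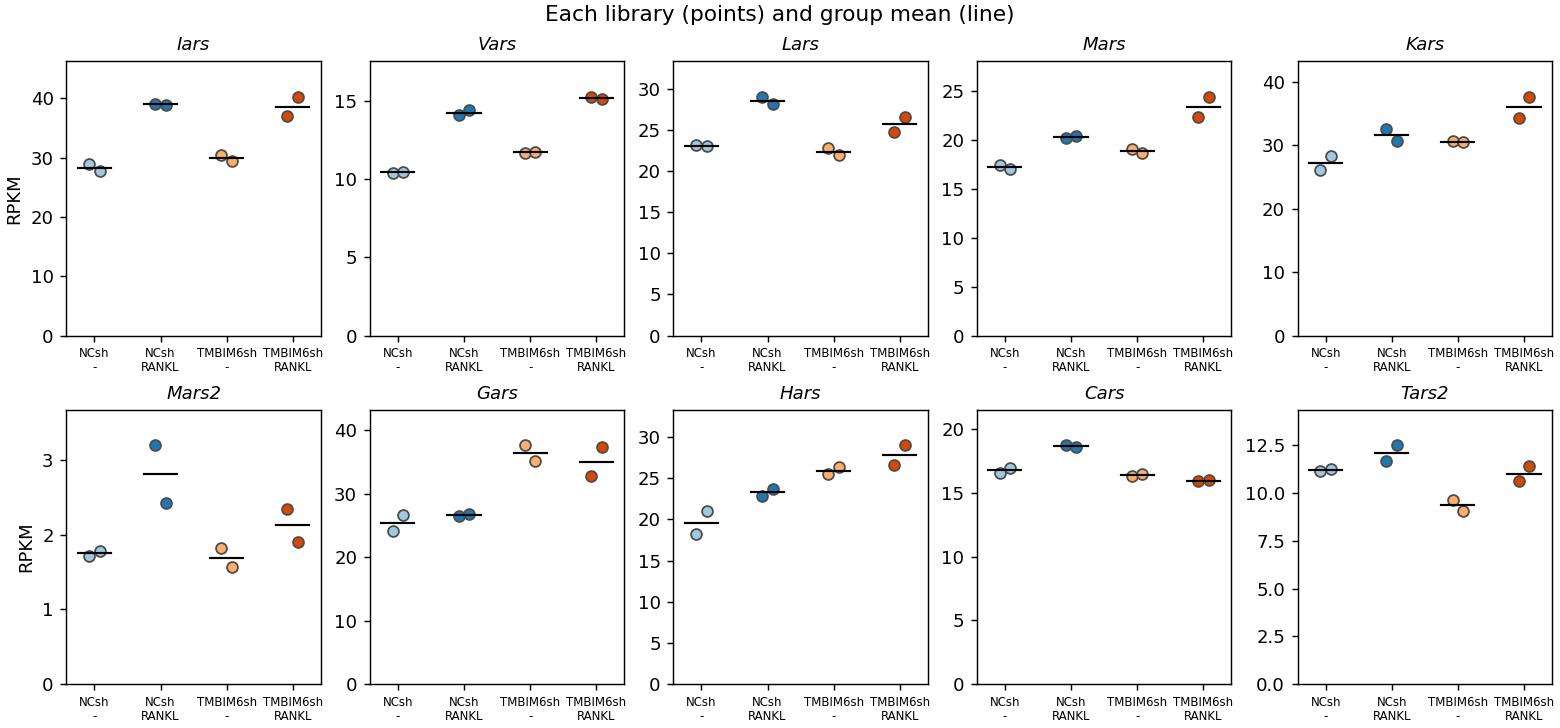
RPKM of 10 synthetases in each library (points) with the group mean (line), each axis starting at 0. Iars and Vars are higher in the 4 RANKL libraries, Gars and Hars in the 4 TMBIM6sh libraries, and Cars is highest in NCsh with RANKL.

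Whether RANKL acted differently with the 2 hairpins was asked with the interaction, the RANKL difference in TMBIM6sh minus that in NCsh. No member was called (limma, 0 of 36), where 0.00906% of all genes were, 1 gene of 11040. At an unadjusted p under 0.05 there was 1 member, Sars2 (log2 -0.38, 95% interval -0.76 to -0.01, adjusted p = 0.637, limma), beside 857 genes of the whole table. Cars followed with -0.18 (95% interval -0.37 to 0.01). The 95% intervals for the other members with called changes were -0.29 to 0.11 for Iars, -0.26 to 0.13 for Vars, -0.14 to 0.28 for Mars, -0.37 to 0.13 for Gars, -0.39 to 0.11 for Hars, -0.68 to 0.18 for Mars2 and -0.12 to 0.34 for Tars2, beside that of Lars given above. These intervals leave room for interaction changes as large as some of the RANKL differences themselves.

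Wars, the tryptophan enzyme and a well-known interferon gamma target (chromosome 12, 108860030 to 108893211, minus strand), measured 23.1 and 23.7 RPKM in NCsh without RANKL and 24.8 and 27.0 RPKM with it. In TMBIM6sh it measured 22.3 and 23.7 RPKM without RANKL and 25.2 and 25.1 RPKM with it. The RANKL libraries were higher in each case, by a log2 value of 0.14 in NCsh and 0.12 in TMBIM6sh, and neither passed (adjusted p = 0.188 and 0.254, limma). Of 11 tested interferon gamma targets, 4 were called higher with RANKL in NCsh and 6 in TMBIM6sh, among them the chemokine Cxcl10 (1.82 and 2.29) and the signalling inhibitor Socs1 (0.80 and 0.89 on the log2 scale). With the TMBIM6 hairpin 4 were called lower without RANKL and 6 with it, among them the guanylate-binding protein Gbp2 (-0.79 and -0.57 on the log2 scale). Wars had hairpin differences of -0.02 and -0.04 (adjusted p = 0.836 and 0.696, limma). The shares over all genes tested were 11% and 8.53% called higher with RANKL in NCsh and TMBIM6sh. For the hairpin they were 13.8% called lower without RANKL and 19.7% with it.

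Lars2, the mitochondrial leucine enzyme (chromosome 9, 123366927 to 123462675, plus strand), stood at another order of level. It measured 3712 and 3431 RPKM in NCsh without RANKL, 3090 and 3375 in NCsh with RANKL, 3660 and 3524 in TMBIM6sh without RANKL, and 3938 and 3594 in TMBIM6sh with RANKL. Its mean ranked 7 among the 24940 genes, and its 305527 to 393140 tags per library were 54.1 to 74.6 times those of the other 15 mitochondrial members together. Lars2 was called in none of the comparisons. The log2 differences were -0.14 for RANKL in NCsh (adjusted p = 0.394), 0.07 for RANKL in TMBIM6sh (0.74), 0.01 for the hairpin without RANKL (0.964) and 0.22 for the hairpin with RANKL (0.141, limma). With median-ratio scaling the last was called (adjusted p = 0.0404).

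Part of the Lars2 transcript is not unique to it. Its main transcript of 3894 bases shares 44 words of 25 bases with AA474408, at positions 3172 to 3313, and 28 with Gm15564, at positions 3278 to 3329. How many tags come from such stretches was not tested. The share of Lars2 in the exon tags was 1.41% to 1.83%, lowest in replicate 1 of NCsh with RANKL and highest in replicate 1 of TMBIM6sh with RANKL. The ribosomal RNA precursor Rn45s, at 6.67% to 8.22%, had its lowest and highest share in the same libraries.

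**Figure D4:**
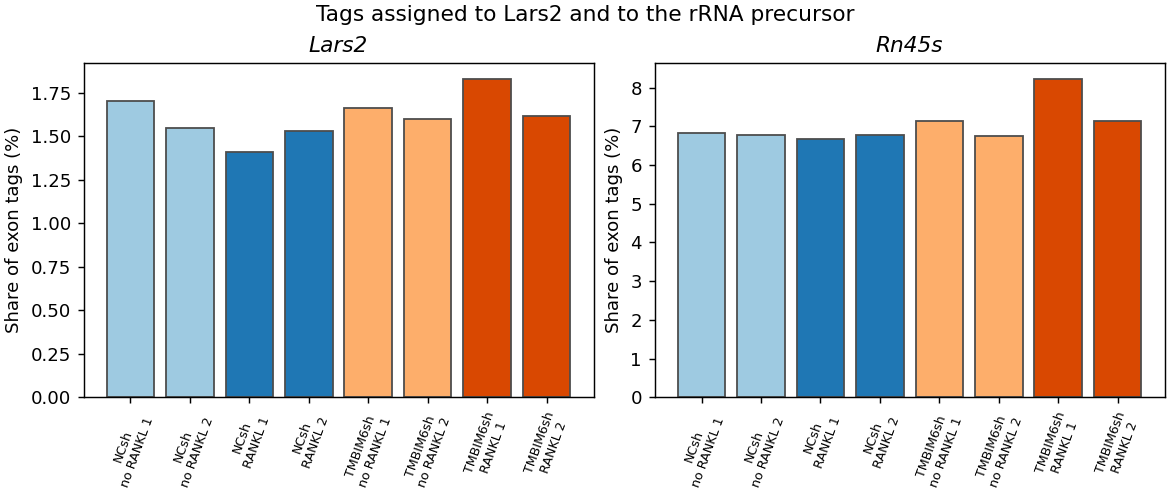
Share of the exon tags of each library that was assigned to Lars2 (left) and to the ribosomal RNA precursor Rn45s (right), bars starting at 0 and coloured by group. Replicate 1 of TMBIM6sh with RANKL has the highest bar in both panels, 1.83% and 8.22%, and replicate 1 of NCsh with RANKL the lowest, 1.41% and 6.67%.

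Of 18 tested genes for scaffolds, other charging enzymes and tRNA export, 0 were called with RANKL in either hairpin at an adjusted p under 0.05 (limma), with 3 in NCsh and 4 in TMBIM6sh at an unadjusted p under 0.05. The scaffold gene Aimp2 had log2 differences of 0.25 and 0.28 (adjusted p = 0.0951 and 0.0664), and Aimp1 and Eef1e1 were not called either. With the TMBIM6 hairpin 2 were lower without RANKL, Gatc of the mitochondrial amidotransferase (-0.51) and the threonine enzyme paralogue Tarsl2 (-0.44). With RANKL 2 others were lower, the proofreading enzyme Dtd2 (-0.56) and the tRNA exporter Xpot (-0.22 on the log2 scale). Of all genes tested 24.2% and 28.6% were called in these hairpin comparisons, and 15% and 15.4% with RANKL. The RANKL comparisons gave 3331 and 3156 of the 11040 genes an unadjusted p under 0.05 (limma). Of 11 elongation factors Eif5a was higher with RANKL in TMBIM6sh (0.31), Gfm2 with the hairpin without RANKL (0.34), and Gfm2 and Eif5a with the hairpin in RANKL (0.38 and 0.24).

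Atf4 and Ddit3, transcription factors of the integrated stress response, were lower with the TMBIM6 hairpin. Atf4 measured 138.5 and 155.8 RPKM in NCsh without RANKL, 151.2 and 148.2 in NCsh with RANKL, 120.8 and 124.2 in TMBIM6sh without RANKL, and 114.2 and 117.9 in TMBIM6sh with RANKL. All 4 TMBIM6sh libraries were below all 4 NCsh libraries, with log2 differences of -0.26 without RANKL (adjusted p = 0.0201) and -0.36 with it (adjusted p = 0.00339, limma). Ddit3 stood at 41.3 to 52.1 RPKM in the NCsh libraries and at 24.3 to 27.3 RPKM in the TMBIM6sh libraries (log2 -0.78 and -0.76, adjusted p = 5.04e-04 and 4.97e-04, limma). Neither was called with RANKL. The values are RNA levels, and a part of either factor in the synthetase differences was not tested.

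Of 28 tested genes of the integrated stress response, 4 were called higher and 2 lower with RANKL in NCsh, and 4 and 3 in TMBIM6sh. The shares over all genes tested were 11% higher and 3.98% lower in NCsh, and 8.53% and 6.89% in TMBIM6sh. The serine hydroxymethyltransferase Shmt2 was higher (0.69 and 0.60) and Atf3 lower (-0.36 and -0.41 on the log2 scale). The arginine and lysine transporter Slc7a1 was higher (0.46 and 0.38), and the mitochondrial PEP carboxykinase Pck2 lower (-0.31 and -0.41). With the TMBIM6 hairpin 4 were higher and 9 lower without RANKL, and 2 were higher and 11 lower with it. Of all genes tested 10.4% were higher and 13.8% lower without RANKL, and 8.93% and 19.7% with it. The serine synthesis enzyme Psat1 (0.93 and 0.91) and Slc7a1 (0.75 and 0.67) were higher, and the pseudokinase Trib3 was lower (-0.52 and -0.54).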

How the data were processed

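The authors deposited RPKM values, made in mm10 with HOMER and RefSeq gene models from exon tags of both strands, per the file headers. The column heads say FPKM. HISAT2 and DESeq2 are also named, without versions, per the submitters' processing notes. The values rise in steps of 1 tag, which gave the depth; 100% of 2810 to 2957 low values per library were whole within 0.1 tags. The 11040 genes that reached 1 RPKM in 2 or more libraries were fitted as log2(RPKM + 1), which understates changes of low genes, with limma 3.58.1 in R 4.3.3. The fit had 1 mean per group, an intensity trend, 4 residual and 5.54 prior degrees of freedom, and Benjamini-Hochberg adjustment over all genes with a threshold of 0.05. A two-sided permutation test of 2 libraries against 2 cannot go below 0.333 and was not run. Duplicates correlated at 0.993 to 0.995 across genes.

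The members and lists were chosen with earlier results of these data known. All members are named, and library values are given for members called in a hairpin comparison, the 5 with the smallest p in each RANKL comparison, Wars and Lars2. Outside the members, Tmbim6, Atf4, Ddit3 and up to 3 called genes with the smallest p per list and comparison are eligible; some of these are not reported here. Exon overlaps and shared words come from GENCODE M21. The fit was tested on simulated data.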

Additional observations from a re-analysis of the deposited data

How the results depend on the processing

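Each of the 14 called member differences was recomputed under 16 alternatives. The 5 for Iars with RANKL in NCsh, Vars with RANKL under either hairpin and Gars in both hairpin comparisons kept their call in all 16, and no member's called difference changed sign. The other 9 lost it in 1 to 13 of them.

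The count of called cytosolic members for RANKL in NCsh (4) was 2 at an adjusted p of 0.01, 7 with Rn45s and Lars2 left out of the library totals, and 2 to 5 when 1 library was left out. For RANKL in TMBIM6sh (3) it was 5 with median-ratio scaling (4 higher and Rars lower), 6 without Rn45s and Lars2, and 1 to 4 with 1 library left out. For the hairpin without RANKL (2) it was 4 with median-ratio scaling and 1 to 2 with 1 library left out. For the hairpin with RANKL (3) it was 1 at 0.01, 6 with median-ratio scaling, 5 without Rn45s and Lars2, and 1 to 5 with 1 library left out. The cytosolic median for RANKL in NCsh was 0.0627 with median-ratio scaling, where that of all genes was -0.00718. The cause of these shifts was not tested.

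The mitochondrial count for RANKL in NCsh (1) was 0 at 0.01, with a pseudocount of 0.1, with no filter, with median-ratio scaling, without Rn45s and Lars2 and in a fit of its own 4 libraries, and 0 to 1 with 1 library left out. For RANKL in TMBIM6sh (0) it was 1 without Rn45s and Lars2 and 0 to 1 with 1 library left out. For the hairpin without RANKL (1) it was 0 at 0.01, with no filter and in its own 4 libraries, and 0 to 1 with 1 library left out, as it was for the hairpin with RANKL (0).

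Deviations from the group means were nearly uncorrelated across genes between libraries of the same replicate number (correlations from -0.0651 to 0.0625). Such values cannot show whether libraries of the same number share a culture or an animal, which the labels do not give. With the replicate number as a block 4, 3, 2 and 4 cytosolic members were called in the 4 comparisons, and 1608, 1670, 2654 and 3128 of all genes in place of 1653, 1703, 2673 and 3157. Under the block Mars lost its call with RANKL in NCsh (adjusted p = 0.0599), Hars gained one there (0.0428), and Dars gained one for the hairpin with RANKL (0.0439).

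Over all genes, RANKL in NCsh gave 1020 calls in its own 4 libraries, and 694 and 887 without replicate 1 or 2 of NCsh with RANKL, in place of 1653. RANKL in TMBIM6sh gave 826 to 1066 without 1 of the 4 TMBIM6sh libraries, in place of 1703. The hairpin without RANKL gave 1401 and 1396 without replicate 1 or 2 of TMBIM6sh without RANKL, in place of 2673. The hairpin with RANKL gave 1870 and 2077 without replicate 1 or 2 of NCsh with RANKL and 2071 without replicate 1 of TMBIM6sh with RANKL, in place of 3157. The interaction gave 0 to 8 calls in place of 1. Depth limits Ears2, Wars2, Pars2 and Mars2 most, at 105 to 234 tags in a library.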
